A study of Arabidopsis thaliana with 6 samples.

Results

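The subject is the set of 31 nuclear genes of Arabidopsis thaliana that encode subunits of photosystem I, photosystem II and the plastid ATP synthase and the electron carriers between and after the photosystems. The light-harvesting antenna proteins were not members. Members were taken by their TAIR gene identifiers from a list set by the encoded proteins, with no measured value in its rule. Earlier results of these data were known when the list was chosen. They comprised 12 genes of photosystem I, 11 of photosystem II, 6 of electron carriers and 2 of the ATP synthase, out of 32319 gene identifiers in the table. The deposited table assigns reads to assembled loci, and the 31 genes lay on 33 of its 32424 loci, because FD2 and PSBTN were each spread over a pair of loci. Seedlings of the wild-type accession Col-0 were compared after 1 h in liquid, sucrose-containing medium with N-linolenoylethanolamine (NAE 18:3) at 100 µM, or with DMSO at 0.07% as the solvent control. NAE 18:3 is the ethanolamine amide of linolenic acid, a lipid of the N-acylethanolamine family. Both groups carried the same wild-type genotype, were raised on sucrose under 14 h of light and 10 h of darkness, and were sampled as seedlings. The labels give their age as 4 days, while the growth text has them transferred at 3 days. Each group had 3 libraries, described as biological replicates. The amount of solvent in the NAE 18:3 medium is not on the labels, so effects of the lipid and of any difference in solvent cannot be told apart. No batch or date is recorded, so a batch that followed the treatment cannot be told apart from it either.

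In the thylakoid membrane, photosystem II takes electrons from water and passes them through plastoquinone to the cytochrome b6f complex. Plastocyanin, a copper protein of the lumen, carries them to photosystem I, which reduces ferredoxin on the stromal side. Ferredoxin-NADP+ reductase (FNR) then makes NADPH, and the proton gradient built up on the way drives the plastid ATP synthase. The reaction-centre proteins of both photosystems are encoded in the plastid genome, while most of the peripheral, extrinsic and low-mass subunits are encoded in the nucleus and imported. In green seedlings the nuclear transcripts of these subunits are among the most abundant messages.

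Levels are FPKM, by definition fragments scaled by transcript length and by the library's mapped fragments, so levels of different genes can be set side by side per length. Whether the authors also scaled the libraries to each other is not given in the sources used here. Summed over all loci except a pair with an extreme value in a single library, FPKM was 991458 to 1023152 in the NAE 18:3 libraries and 687951 to 697645 in the DMSO libraries. Read from the step size of low values, depth relative to NAE 18:3 replicate 1 was 0.987 and 1.27 for the other NAE 18:3 libraries and 0.482 to 0.968 for the DMSO libraries. These steps also hold any scaling the authors applied, and absolute depth is unknown. All 271 plastid and mitochondrial loci were listed at 0 in every library, so plastid-encoded subunits have no values here.

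All 31 genes were higher in NAE 18:3 seedlings than in DMSO seedlings. In the fit over all 18194 loci tested, 33 of 33 member loci were called higher and 0 lower (limma, Benjamini-Hochberg adjusted p under 0.05), where 44.1% of all loci were called higher, 39.2% lower and 83.2% in either direction. In RNA of seedlings, a change in the number of cells of a type and a change in its RNA per cell cannot be told apart. The filter, 1 FPKM in the average of the 6 libraries, was passed by all 33. At 28 loci the rise was at least 2-fold, which held for 18.4% of all loci. Differences of log2(FPKM + 1) are given as log2 changes, the NAE 18:3 mean minus the DMSO mean. The median log2 change was 1.42 over the member loci and 0.06 over all loci tested. It ranged from 0.81 for PETE1, the minor plastocyanin gene, to 2.46 for PSBR, a membrane subunit of photosystem II. Adjusted p-values lay between 1.2e-10 and 4.2e-06, and standard errors between 0.026 and 0.11. The 3 NAE 18:3 values lay above the 3 DMSO values at every member locus, where 44.9% of all loci showed this order and 84.6% had groups apart in either direction. Between replicates the members varied little, with a median coefficient of variation of 3.08% in NAE 18:3 and 1.8% in DMSO libraries. The widest spread was 16.9%, at the first PSBTN locus in NAE 18:3 libraries. The PSBTN transcript at the second locus was highest in the library where the first locus was lowest, NAE 18:3 replicate 2.

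**Figure D1:**
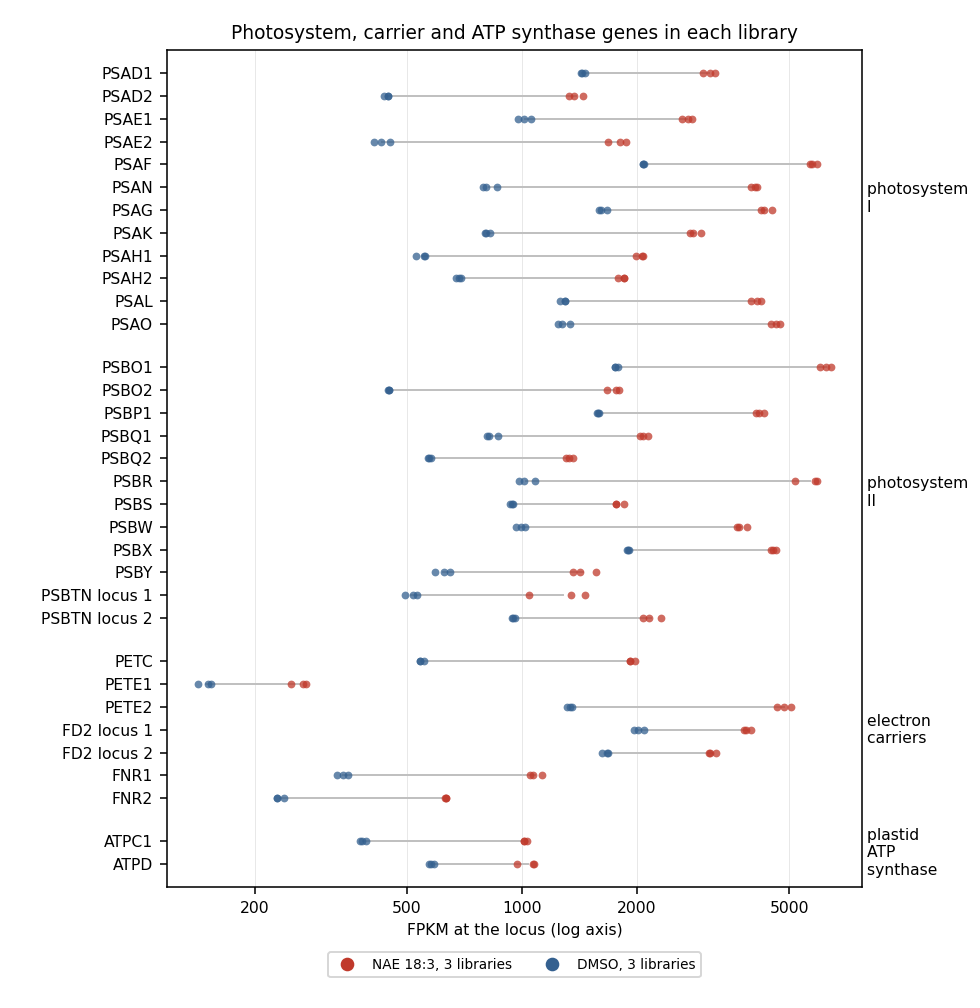
FPKM of each of the 33 member loci in each library, on a log axis, grouped by complex, with NAE 18:3 libraries in red, DMSO libraries in blue and a grey line joining the group means. At each locus all 3 NAE 18:3 points lie to the right of all 3 DMSO points, and PETE1 stands at the low end of the levels.

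The plot of FPKM by library shows rises of unequal length. By the ratio of group means, 14 loci rose at least 3-fold, 14 rose from 2-fold to under 3-fold, and 5 rose less than 2-fold. These 5 were PSBS, PETE1, ATPD and both FD2 loci. Summed over the members, with PSBTN counted at its unjoined locus, FPKM was 91029, 87422 and 92669 in the NAE 18:3 libraries, against 30587, 31081 and 30989 in the DMSO libraries. The groups did not overlap, and the ratio of their means was 2.93. An exact two-sided permutation test gave p = 0.10, the smallest value that 3 libraries against 3 allow. As a share of the library's FPKM sum the members held 8.96% ± 0.128 in NAE 18:3 and 4.46% ± 0.0489 in DMSO libraries (SD, n = 3 each), a ratio of 2.01.

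The size of the rises depended on how libraries were brought to a common scale. With each library set to the same upper quartile, the median over all loci moved to -0.25 and the members' median to 1.07, and 33 of 33 members were still called higher, against 32.2% of all loci called higher and 52.2% lower. With each library set to the same total FPKM, the median over all loci was -0.41 and that of the members 0.88, and again 33 of 33 were called higher, against 26.6% of all loci called higher and 59.3% lower. Scaling by the median of ratios changed little, with 33 of 33 members higher, against 41.7% of all loci called higher and 41.6% lower. Quantile normalization, which forces the same distribution of values on every library, left 26 members higher and 6 lower, with a median of 0.63. The 6 called lower there were PSAD1, PSAG, PSBP1, PSBX and both FD2 loci, and PSAF was not called at a log2 change of -0.060. Under quantile normalization 39.8% of all loci were called higher and 42.6% lower. The 6 member loci called lower there all had at least 1439.5 FPKM in the mean of the DMSO libraries. Orders of change among members given below are those of the deposited scale. Under quantile normalization PSAE2, at 1.67, stood highest and the first FD2 locus, at -0.62, lowest.

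**Figure D2:**
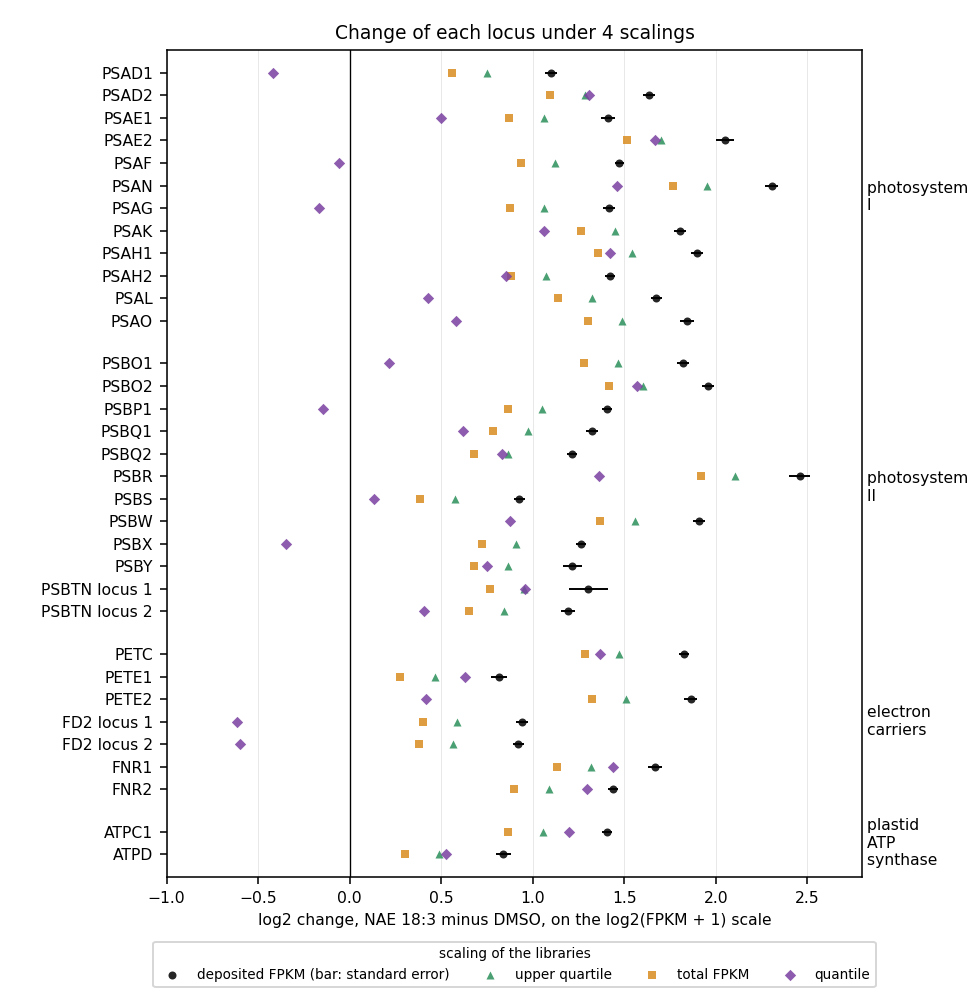
Log2 change of each member locus, NAE 18:3 minus DMSO, as deposited (black, with its standard error) and after upper quartile, total FPKM and quantile scaling. The deposited values run from 0.81 to 2.46, upper quartile and total FPKM shift all loci towards 0 without crossing it, and quantile scaling puts 7 loci below 0.

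In the plot of changes by scaling, upper quartile and total FPKM moved each member by nearly the same distance. Quantile normalization moved PETE1, FNR1 and FNR2, the members of lowest level in DMSO libraries, little, and moved PSBO1, PSAF and both FD2 loci, which were among the highest, far more.

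Photosystem I holds the subunits that receive electrons from plastocyanin and hand them to ferredoxin. All 12 of its nuclear genes on the list rose, with a median log2 change of 1.66 and ratios of means from 2.15 to 4.94. Their summed FPKM was 38646, 37442 and 39474 in NAE 18:3 libraries, against 12301, 12506 and 12563 in DMSO libraries, a ratio of 3.09 with no overlap (exact permutation p = 0.10).

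The stromal ridge, where ferredoxin docks, is formed by PSAD and PSAE, each encoded by a pair of genes. PSAD1 (AT4G02770) had 3095, 2971 and 3206 FPKM in NAE 18:3 libraries, against 1429, 1432 and 1458 FPKM in DMSO libraries. Its rise was the smallest of photosystem I, at a log2 change of 1.10 (standard error 0.03, limma, adjusted p = 5.5e-09), and its sign turned under quantile normalization, to -0.42. PSAD2 (AT1G03130), the less abundant copy, had 1371, 1329.5 and 1442 FPKM in NAE 18:3 libraries, against 447, 436 and 448 FPKM in DMSO libraries, a log2 change of 1.63. PSAE1 (AT4G28750) had 2713, 2617 and 2787 FPKM in NAE 18:3 libraries, against 979, 1055 and 1015 FPKM in DMSO libraries, a log2 change of 1.41. PSAE2 (AT2G20260) had 1802, 1683 and 1874 FPKM in NAE 18:3 libraries, against 428, 409.6 and 453 FPKM in DMSO libraries, a log2 change of 2.05. In both pairs the less abundant copy rose more.

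On the lumenal side, PSAF (AT1G31330) docks plastocyanin and PSAN (AT5G64040) is a small extrinsic subunit that takes part in its reaction. PSAN rose most of photosystem I, with 4060.2, 3981 and 4119.7 FPKM in NAE 18:3 libraries, against 793, 805 and 861 FPKM in DMSO libraries. Its log2 change was 2.31 (standard error 0.04, limma, adjusted p = 1.6e-10), with no overlap between groups. PSAF, the most abundant photosystem I transcript of the list in both groups, averaged 5763 ± 115 FPKM in NAE 18:3 and 2075 ± 7.46 FPKM in DMSO libraries (SD, n = 3 each), a log2 change of 1.47 that fell to -0.060 and was not called under quantile normalization. The ratio of PSAN to PSAF within a library was 0.709, 0.702 and 0.699 in NAE 18:3, against 0.384, 0.387 and 0.415 in DMSO. This ratio was picked after the values were seen, and its log2 difference of 0.83 was 1.52 under quantile normalization.

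PSAG (AT1G55670) and PSAK (AT1G30380) are membrane subunits at the side of the core where the light-harvesting proteins of photosystem I attach. PSAG averaged 4335 ± 141 FPKM in NAE 18:3 and 1625 ± 37.4 FPKM in DMSO libraries (SD, n = 3 each), a log2 change of 1.41 on the deposited scale and of -0.17 with quantile normalization. PSAK averaged 2834 ± 97.6 FPKM in NAE 18:3 and 812 ± 13.1 FPKM in DMSO libraries, a log2 change of 1.80. PSAG was the higher of the pair in every library of both groups.

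PSAH, PSAL (AT4G12800) and PSAO (AT1G08380) lie on the opposite side of the core, where mobile light-harvesting complex II docks during state transitions. PSAH1 (AT3G16140) had 2067, 1982 and 2061 FPKM in NAE 18:3 libraries, against 527, 554 and 559.5 FPKM in DMSO libraries, a log2 change of 1.89. PSAH2 (AT1G52230) had 1850.5, 1788 and 1849 FPKM in NAE 18:3 libraries, against 671, 691 and 683 FPKM in DMSO libraries, a log2 change of 1.42. The order of the copies was thus reversed between the groups, with PSAH1 the higher in each NAE 18:3 library and PSAH2 the higher in each DMSO library. PSAL averaged 4099 ± 124 FPKM in NAE 18:3 and 1282 ± 23.1 FPKM in DMSO libraries, a log2 change of 1.68. PSAO averaged 4606 ± 126 FPKM in NAE 18:3 and 1284 ± 46.9 FPKM in DMSO libraries, a log2 change of 1.84. PSAL and PSAO had nearly the same level in DMSO seedlings and differed in NAE 18:3 seedlings, where PSAO was above PSAL in every library.

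Photosystem II splits water at a manganese cluster shielded by extrinsic proteins on the lumenal side. Its 11 genes, on 12 loci, all rose, with a median log2 change of 1.31 and ratios of means from 1.90 to 5.50. Summed FPKM was 34432, 32586 and 35049 in NAE 18:3 libraries, against 11151, 11229.8 and 11186 in DMSO libraries, a ratio of 3.04 (exact permutation p = 0.10).

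Of the oxygen-evolving complex, PSBO is the manganese-stabilizing protein. PSBO1 (AT5G66570) had 6254, 6019 and 6417 FPKM in NAE 18:3 libraries, against 1748, 1787 and 1755 FPKM in DMSO libraries, a log2 change of 1.82. It had the highest locus mean of all members in NAE 18:3 libraries. PSBO2 (AT3G50820), its second copy, had 1798, 1671 and 1766 FPKM in NAE 18:3 libraries, against 447, 449 and 449.8 FPKM in DMSO libraries, a log2 change of 1.96. PSBP1 (AT1G06680), an extrinsic protein bound next to PSBO, averaged 4184 ± 102 FPKM in NAE 18:3 and 1580.0 ± 10.2 FPKM in DMSO libraries, a log2 change of 1.40, or -0.14 with quantile normalization. PSBQ, the extrinsic protein next to PSBP, has a pair of genes with smaller rises. PSBQ1 (AT4G21280) had 2075, 2035 and 2139 FPKM in NAE 18:3 libraries, against 818, 812 and 864 FPKM in DMSO libraries, a log2 change of 1.32. PSBQ2 (AT4G05180) had 1331, 1304 and 1359 FPKM in NAE 18:3 libraries, against 569, 571 and 578 FPKM in DMSO libraries, a log2 change of 1.22.

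Among the membrane subunits, PSBR (AT1G79040), which helps to hold the extrinsic proteins, rose most of all members. It had 5912, 5185 and 5844 FPKM in NAE 18:3 libraries, against 1016, 1084 and 981 FPKM in DMSO libraries. Its log2 change was 2.46 (standard error 0.06, limma, adjusted p = 1.2e-09). PSBS (AT1G44575), the sensor that turns excess excitation into heat, rose least of photosystem II. It had 1766, 1758 and 1847 FPKM in NAE 18:3 libraries, against 932, 944 and 948 FPKM in DMSO libraries, a log2 change of 0.93 (standard error 0.03, adjusted p = 6.8e-09). PSBR and PSBS therefore stood at similar levels in DMSO seedlings, with PSBR over PSBS at 1.09, 1.15 and 1.03, and apart in NAE 18:3 seedlings, at 3.35, 2.95 and 3.16. The pair was picked after the values were seen.

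The low-mass subunits of photosystem II are single-helix or short proteins around the core. PSBW (AT2G30570) averaged 3738 ± 115 FPKM in NAE 18:3 and 994 ± 25.2 FPKM in DMSO libraries, a log2 change of 1.91. PSBX (AT2G06520) averaged 4544 ± 71.7 FPKM in NAE 18:3 and 1894 ± 10.2 FPKM in DMSO libraries, a log2 change of 1.26, or -0.35 with quantile normalization. PSBY (AT1G67740) averaged 1446 ± 100.0 FPKM in NAE 18:3 and 622 ± 27.9 FPKM in DMSO libraries, a log2 change of 1.22. PSBW was below PSBX in all 6 libraries and rose more. PSBTN (AT3G21055) lay on a pair of loci, the first with 1464, 1044 and 1344 FPKM in NAE 18:3 libraries, against 518, 494 and 531 FPKM in DMSO libraries, a log2 change of 1.30. NAE 18:3 replicate 2 was the low value there, and without it the log2 change was 1.45. The second locus also held AT3G21040 and averaged 2175 ± 118 FPKM in NAE 18:3 and 949.9 ± 9.71 FPKM in DMSO libraries. Its log2 change of 1.19 covers both genes. By the assembled transcripts, AT3G21040 averaged 1434 ± 294 FPKM there in NAE 18:3 and 586 ± 25.7 FPKM in DMSO libraries. The PSBTN transcript there had 540, 979 and 704 FPKM in NAE 18:3 libraries, against 347, 389 and 357 FPKM in DMSO libraries. This transcript was highest in NAE 18:3 replicate 2, although the second locus as a whole was lowest there, at 2074 FPKM against 2148 and 2305. How reads were split between the PSBTN loci is not given in the sources used here. The spread at the first locus therefore need not be that of the gene.

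Transcripts of the electron carriers rose at every locus. All 7 loci of their 6 genes were called higher, with a median log2 change of 1.44 and ratios of means from 1.76 to 3.64, and 4 of them passed 2-fold. Summed FPKM was 15853, 15408 and 16056 in NAE 18:3 libraries, against 6184, 6375 and 6270 in DMSO libraries, a ratio of 2.51 (exact permutation p = 0.10). PETC (AT4G03280), the Rieske iron-sulfur protein of the cytochrome b6f complex, averaged 1935 ± 31.2 FPKM in NAE 18:3 and 546 ± 8.82 FPKM in DMSO libraries, a log2 change of 1.82.

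Plastocyanin is encoded by a pair of genes of very different level. PETE2 (AT1G20340), the abundant copy, had 4844, 4656 and 5051 FPKM in NAE 18:3 libraries, against 1315, 1352 and 1333 FPKM in DMSO libraries. Its log2 change of 1.86 was the largest of the carriers as deposited (standard error 0.03, limma, adjusted p = 3.5e-10), while under quantile normalization FNR1, PETC, FNR2 and PETE1 all rose more. PETE1 (AT1G76100) had 267, 249 and 273 FPKM in NAE 18:3 libraries, against 143, 151 and 154 FPKM in DMSO libraries, and its log2 change of 0.81 was the smallest of all members (standard error 0.04, adjusted p = 2.6e-07). Here the more abundant copy rose more, unlike in the PSAD and PSAE pairs, and under quantile normalization PETE1, at 0.63, rose more than PETE2, at 0.41.

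Of the stromal carriers, FD2 (AT1G60950) is the main leaf ferredoxin, and its values over both loci were 7061, 6906 and 7059.7 FPKM in NAE 18:3 libraries, against 3629, 3761 and 3636 FPKM in DMSO libraries. The log2 changes of its loci were 0.94 and 0.92, and quantile normalization turned both, to -0.62 and -0.60. Summed over its loci, FD2 was the most abundant member in both groups, and it was among the members that rose least. By mean of single loci, PSBO1 was highest in NAE 18:3 and PSAF in DMSO libraries. How reads were shared between the FD2 loci is not given in the sources used here. FNR1 (AT5G66190), the leaf FNR needed to anchor the enzyme at the thylakoid, had 1127, 1052 and 1071 FPKM in NAE 18:3 libraries, against 328, 340.2 and 352 FPKM in DMSO libraries, a log2 change of 1.67. FNR2 (AT1G20020), the other leaf FNR, had 633, 632 and 629.6 FPKM in NAE 18:3 libraries, against 229, 229.6 and 239 FPKM in DMSO libraries, a log2 change of 1.44. Both reductases thus rose further than the ferredoxin they oxidize.

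The plastid ATP synthase was represented by the gamma and delta subunits of its catalytic part. ATPC1 (AT4G04640), the gamma subunit through which the enzyme is regulated by light, had 1030.3, 1011 and 1012 FPKM in NAE 18:3 libraries, against 378, 382 and 390.3 FPKM in DMSO libraries, a log2 change of 1.41 (standard error 0.03, limma, adjusted p = 3.4e-10). ATPD (AT4G09650), the delta subunit, had 1067, 974 and 1077 FPKM in NAE 18:3 libraries, against 573, 588 and 579 FPKM in DMSO libraries, a log2 change of 0.84 (standard error 0.04, adjusted p = 1.2e-07). ATPD was above ATPC1 in every DMSO library, while in NAE 18:3 libraries the values of the subunits overlapped. Their sum was 2097, 1985 and 2089 FPKM in NAE 18:3 libraries, against 951, 969.7 and 969 FPKM in DMSO libraries, a ratio of 2.14. This was the smallest of the 4 complexes as deposited, but with quantile normalization its log2 ratio of 0.82 was the largest. PETE2 over ATPD, a ratio picked after the values were seen, was 4.54, 4.78 and 4.69 in NAE 18:3 libraries, against 2.30 in each DMSO library, and its log2 difference of 1.02 turned to -0.11 under quantile normalization.

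Ratios within a library do not change when the whole library is multiplied by a factor, so they were set beside the changes above. Of 17 such ratios, 7 of them picked after the values were seen, 16 had groups that did not overlap, each with exact two-sided permutation p = 0.10, the smallest possible, or 0.106 after Benjamini-Hochberg adjustment over the 17. The exception was the ratio of summed photosystem I to summed photosystem II. It was 1.12, 1.15 and 1.13 in NAE 18:3 libraries, against 1.10, 1.11 and 1.12 in DMSO libraries, and the mean log2 ratio differed by 0.02 (exact permutation p = 0.20). No ratios between loci outside these genes and lists were computed for comparison. By level alone, 84.6% of all loci had groups apart. The sums of the photosystems rose 3.09-fold and 3.04-fold, while the loci within them rose from 1.90-fold to 5.50-fold.

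**Figure D3:**
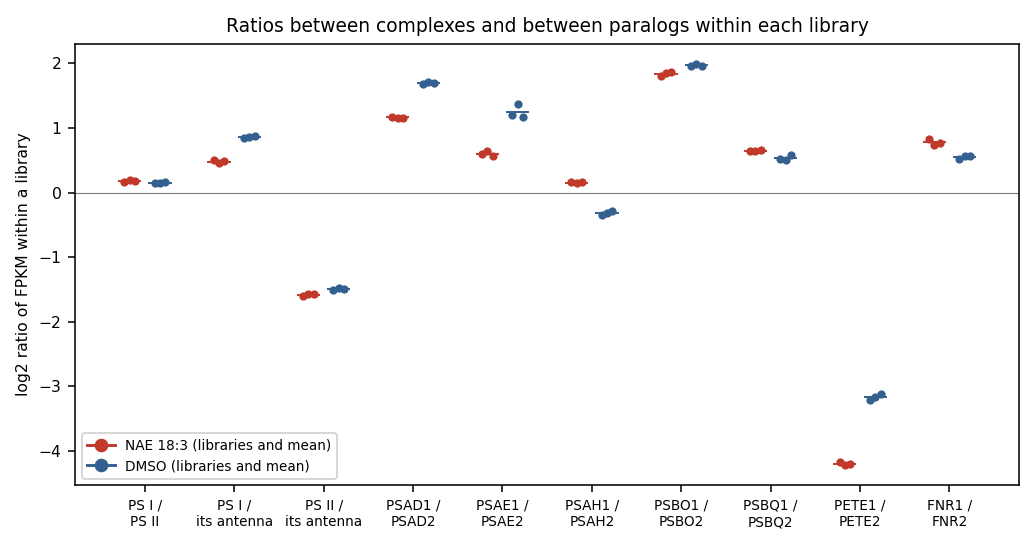
Log2 ratio of FPKM within each library for sums of complexes and for 7 paralog pairs, with NAE 18:3 libraries (red) left of DMSO libraries (blue) and horizontal lines at the group means. Photosystem I over photosystem II overlaps between the groups, the groups of the other 9 ratios do not, and PSAH1 over PSAH2 lies above 0 in NAE 18:3 and below 0 in DMSO libraries.

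The plot of ratios sets these shifts on the same axis. The paralog ratio that moved furthest was PETE1 over PETE2, at 0.0552, 0.0536 and 0.0541 in NAE 18:3 libraries, against 0.108, 0.112 and 0.115 in DMSO libraries, a difference of -1.04 in log2 that turned to 0.22 under quantile normalization. PSAD1 over PSAD2 was 2.26, 2.23 and 2.22 in NAE 18:3, against 3.19, 3.28 and 3.26 in DMSO libraries, and PSAE1 over PSAE2 was 1.51, 1.55 and 1.49 in NAE 18:3, against 2.29, 2.57 and 2.24 in DMSO libraries. The log2 differences were -0.54 and -0.64, so in both pairs the more abundant copy exceeded the other by a smaller factor in NAE 18:3 libraries. PSAH1 over PSAH2 was 1.12, 1.11 and 1.12 in NAE 18:3, against 0.787, 0.801 and 0.819 in DMSO libraries, a log2 difference of 0.47. The remaining pairs shifted less, by -0.14 for PSBO1 over PSBO2, 0.11 for PSBQ1 over PSBQ2 and 0.23 for FNR1 over FNR2, and the PSBQ ratio turned to -0.21 under quantile normalization. How the authors' counting treated reads that match both copies is not given in the sources used here, so the split within each pair is uncertain.

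As sums on the deposited scale, both photosystems rose less than the light-harvesting proteins that feed them. Summed photosystem I over its 4 antenna genes was lower in NAE 18:3 libraries, at 1.41, 1.37 and 1.40, against 1.81, 1.81 and 1.83 in DMSO libraries, a log2 difference of -0.38. Summed photosystem II over its antenna genes was 0.331, 0.338 and 0.336 in NAE 18:3 libraries, against 0.352, 0.359 and 0.355 in DMSO libraries, a smaller difference of -0.09 that turned to 0.27 under quantile normalization. Of the antenna loci themselves, 4 of 4 of photosystem I (median log2 change 2.00) and 13 of 14 of photosystem II (median 1.78) were called higher. The share called higher over all loci was 44.1%. The largest rise was that of LHCB1.4, with 7179 ± 361 FPKM in NAE 18:3 and 974 ± 12.7 FPKM in DMSO libraries (SD, n = 3 each), and LHCA1 led those of photosystem I at a log2 change of 2.17. Quantile normalization left 3 of 4 and 9 of 14 of these loci higher and 2 of the photosystem II antenna, LHCB1.1 and LHCB1.2, lower.

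Other nuclear genes of the same membrane mostly moved with the members. Of 10 tested loci of further thylakoid subunits and carriers, 8 rose and 2 fell, with a median log2 change of 1.30. Over all loci, 44.1% were called higher and 39.2% lower. PETM, a small subunit of the cytochrome b6f complex, rose most, with 2128 ± 40.9 FPKM in NAE 18:3 and 419 ± 15.7 FPKM in DMSO libraries (log2 change 2.34, limma, adjusted p = 1e-10). Those that fell were FD1, the second leaf ferredoxin, and ATPC2, the second gene of the gamma subunit. PSBP2, at 0.623 ± 0.270 FPKM in NAE 18:3 and 0.945 ± 0.228 FPKM in DMSO libraries, was under the filter. CURT1A, which bends thylakoid membranes at grana margins, rose by 0.38 in log2 on the deposited scale but turned to -0.16 with total FPKM scaling.

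Factors that build the complexes rose less. Of 11 assembly genes, 10 were called higher and 1 lower, with a median of 0.77, against 44.1% and 39.2% of all loci. HCF244, a photosystem II assembly factor, rose most, with 306 ± 8.0 FPKM in NAE 18:3 and 59.2 ± 0.395 FPKM in DMSO libraries, a log2 change of 2.35. PAM68, another photosystem II assembly factor, fell, with 28.1 ± 3.26 FPKM in NAE 18:3 and 34.6 ± 1.23 FPKM in DMSO libraries (log2 change -0.30, limma, adjusted p = 0.0058). Y3IP1 and PSA3, both photosystem I assembly factors, rose by 0.30 and 0.26 but turned sign with upper quartile, total FPKM and quantile scaling, and Y3IP1 shares its locus with another gene. Of 11 genes of cyclic electron flow, the plastid NDH complex and the state transition kinases, all 11 were called higher, with a median of 1.37. STN7, the kinase that drives state transitions, rose most, with 96.3 ± 1.91 FPKM in NAE 18:3 and 18.3 ± 0.624 FPKM in DMSO libraries, a log2 change of 2.34. PTOX, the plastid terminal oxidase, rose least, by 0.17 (adjusted p = 0.017). Its sign turned with upper quartile, total FPKM and quantile scaling, and its call was lost without NAE 18:3 replicate 1 or 2, with an adjusted p of up to 0.065.

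**Figure D4:**
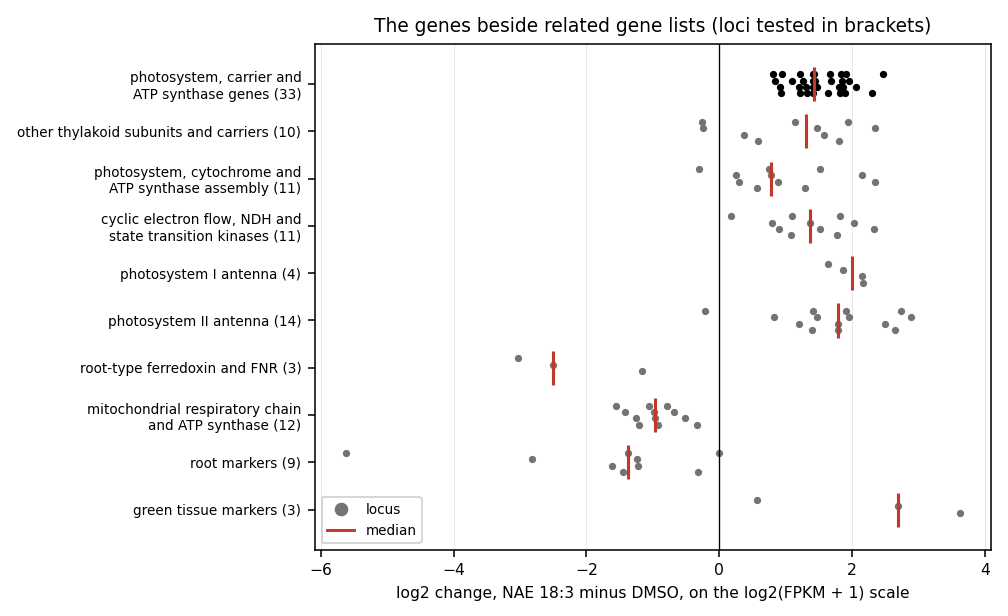
Log2 change, NAE 18:3 minus DMSO, of each tested locus (points) and the median (red line) for the member genes and 9 related gene lists, with the number of loci in brackets. The members and the other thylakoid, assembly, cyclic flow, antenna and green tissue lists have medians above 0, while root-type ferredoxin and FNR, mitochondrial and root marker lists have medians below 0.

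The ferredoxin and FNR forms of non-green tissue were lower in NAE 18:3 seedlings. FD3, the ferredoxin that works in roots and other non-green plastids, had 74.0, 73.1 and 83.4 FPKM in NAE 18:3 libraries, against 172, 174 and 175 FPKM in DMSO libraries, a log2 change of -1.17. The root-type reductases fell further. RFNR1 had 17.2, 15.4 and 16.8 FPKM in NAE 18:3 libraries, against 92.5, 99.0 and 102 FPKM in DMSO libraries, a log2 change of -2.50. RFNR2 had 7.48, 7.36 and 8.03 FPKM in NAE 18:3 libraries, against 71.6, 70.6 and 65.7 FPKM in DMSO libraries, a log2 change of -3.03. All 3 were called lower under each of the scalings tried, where 39.2% to 59.3% of all loci were. FD1 had 882, 871 and 977 FPKM in NAE 18:3 libraries, against 1084, 1125 and 1060.4 FPKM in DMSO libraries, a log2 change of -0.26 (limma, adjusted p = 0.00076). It thus fell while FD2, the other leaf form, rose on the deposited scale.

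As ratios picked after the values were seen, FD2 over FD1 was 8.0, 7.93 and 7.22 in NAE 18:3 libraries, against 3.35, 3.34 and 3.43 in DMSO libraries, a log2 difference of 1.19 that was 0.36 under quantile normalization. FD2 over FD3 was 95.4, 94.5 and 84.7 in NAE 18:3 libraries, against 21.1, 21.6 and 20.8 in DMSO libraries, a log2 difference of 2.11 that was 0.86 under quantile normalization. Leaf FNR, summed over its genes, over root-type FNR was 71.3, 74.0 and 68.5 in NAE 18:3 libraries, against 3.40, 3.36 and 3.51 in DMSO libraries. The last was the widest shift of all 17 ratios, at 4.38 in log2.

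**Figure D5:**
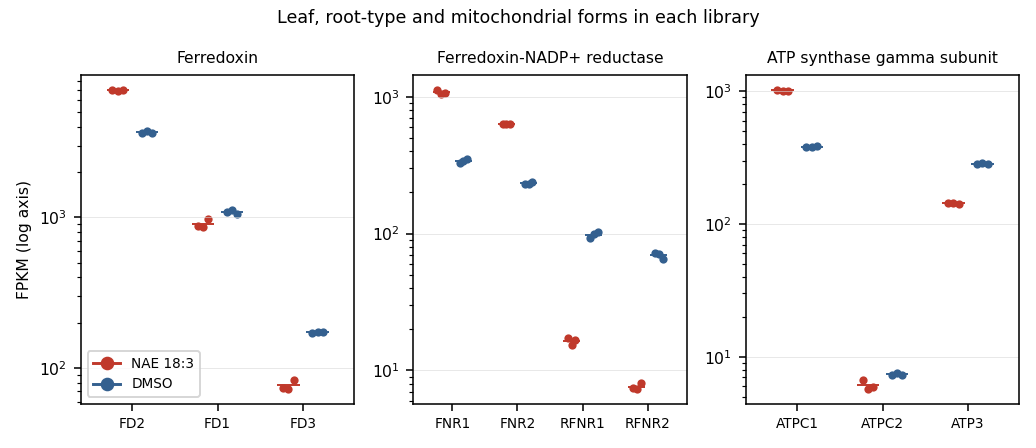
FPKM, on log axes, of leaf and non-leaf forms of ferredoxin, of FNR and of ATP synthase gamma subunits in each library, with NAE 18:3 (red) left of DMSO (blue) and lines at the group means. FD2, FNR1, FNR2 and ATPC1 are higher in NAE 18:3 libraries, and FD1, FD3, RFNR1, RFNR2, ATPC2 and the mitochondrial ATP3 are lower.

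The plot of carrier forms also holds the gamma subunits of the ATP synthases. ATP3, the mitochondrial gamma subunit, had 145, 145 and 143 FPKM in NAE 18:3 libraries, against 286, 286 and 282 FPKM in DMSO libraries, a log2 change of -0.98. ATPC1 over ATP3, picked after the values were seen, was 7.12, 6.98 and 7.09 in NAE 18:3 libraries, against 1.32, 1.34 and 1.38 in DMSO libraries. ATPC2 averaged 6.11 ± 0.520 FPKM in NAE 18:3 and 7.38 ± 0.157 FPKM in DMSO libraries (log2 change -0.24, limma, adjusted p = 0.013), and its call was lost without NAE 18:3 replicate 2 or 3, with an adjusted p of up to 0.051. ATP3 stood among 12 nuclear genes of the mitochondrial respiratory chain and ATP synthase, which all fell, with a median log2 change of -0.98, and did so under each scaling tried. Across these scalings 39.2% to 59.3% of all loci were called lower. The range was from -1.56 for the epsilon subunit to -0.34 for UCR1-2, a Rieske protein of complex III and thus the mitochondrial counterpart of PETC.

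Markers of root tissue were lower in NAE 18:3 seedlings. Of 13 root markers, 12 lay lower in all 3 NAE 18:3 libraries than in any DMSO library. Over all tested loci, 84.6% had groups apart in either direction and 44.9% had them apart with NAE 18:3 the higher. The summed level of the list was 47.5 to 53.5 FPKM in NAE 18:3 and 163 to 177 FPKM in DMSO libraries. MRN1, of the root triterpene cluster, was listed at 0 in all NAE 18:3 libraries, and no marker was at 0 in the DMSO libraries. Of the 9 markers past the filter, 8 were called lower and SCR, a regulator of the root endodermis that is also expressed in shoots, was not, at a log2 change of -0.0064. Of all loci tested, 39.2% were called lower and 44.1% higher. With upper quartile, total FPKM or quantile scaling all 9 were called lower, against 52.2%, 59.3% and 42.6% of all loci. AGP30, a root arabinogalactan protein, fell most, with 0.494 ± 0.188 FPKM in NAE 18:3 and 72.5 ± 7.72 FPKM in DMSO libraries, a log2 change of -5.62. The 3 markers of green tissue were called higher, from 0.57 for RBCS1A, a small subunit of Rubisco, to 3.63 for CA1, a leaf carbonic anhydrase, although RBCS1A was not called with total FPKM or quantile scaling. The part of these markers in the rise of the photosystem genes was not tested.

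The members were among the most abundant loci in both groups, and most moved up the order of levels. Ranked by FPKM among 32424 loci, the median member stood at 49, 50 and 46 in NAE 18:3 libraries, against 94, 94 and 79 in DMSO libraries. Among the 100 highest loci were 29, 28 and 28 member loci in NAE 18:3 libraries, against 18, 18 and 19 in DMSO libraries. PSBR stood near the top of this set in NAE 18:3 seedlings, with ranks of 14 to 17 in NAE 18:3 and 53 to 62 in DMSO libraries. In all, 25 loci ranked higher in each NAE 18:3 library than in any DMSO library and 2 overlapped. The other 6, PSAD1, PSAG, PSBP1, PSBX and both FD2 loci, ranked lower although their FPKM was higher. PSAD1, for example, ranked 36 in each NAE 18:3 library and 22 to 26 in DMSO libraries.

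Rises were common among loci that were abundant by their mean over both groups. Of 84 tested loci that averaged 1000 FPKM or more, 25 were member loci. Of the other 59, 48 were called higher and 8 lower, with a median log2 change of 1.64. Leaving aside the antenna, thylakoid and green tissue lists, 38 abundant loci remained, of which 28 were called higher and 7 lower, with a median of 1.13. The share called higher was 30.5% at means of 1 to 10 FPKM, 54.7% at 10 to 100, 55.2% at 100 to 1000 and 86.9% from 1000 upwards, members included. These classes were set by values of both groups, so a locus could enter the highest through the group where it was high. AGT, called higher, had a DMSO mean of 193 FPKM. ICL, called lower, had a mean of 867 FPKM in the treated libraries. Whether rises were as common among loci chosen by their DMSO level alone was not tested.

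The assembly listed more than 1 transcript at 12 of the 33 member loci, and at 7 of these a second transcript held over 2% of the locus. At PSAE2 the minor transcript held 42.3% ± 1.16 of the locus in NAE 18:3 and 34.2% ± 3.99 in DMSO libraries (SD, n = 3 each). At FNR2 the second transcript held 11.3% in NAE 18:3 and 6.56% in DMSO libraries. The second transcript held a smaller share in NAE 18:3 libraries at FNR1, with 38.9% in NAE 18:3 and 46.8% in DMSO libraries. The same held at PSBW, with 2.34% in NAE 18:3 and 4.33% in DMSO libraries, and at PSBQ2, with 4.38% in NAE 18:3 and 10.2% in DMSO libraries. At these 5 loci the shares of the groups did not overlap. How often shares were apart among all loci with several transcripts was not computed, and levels were apart at 84.6% of all loci. The minor PSBQ2 transcript itself had 51.3, 69.5 and 53.8 FPKM in NAE 18:3 libraries, against 53.1, 52.8 and 70.1 FPKM in DMSO libraries, with overlap, while the major transcript averaged 1273 ± 35.7 FPKM in NAE 18:3 and 514 ± 4.94 FPKM in DMSO libraries. At PSAH1 the minor form held 11.8% ± 9.67 in NAE 18:3 and 4.19% ± 1.68 in DMSO libraries, with overlap. In the TAIR10.1 annotation, used for names only, 10 of the member genes overlap another annotated gene, and strandedness is not given in the sources used here, so reads from such neighbours cannot be told apart.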

How the data were processed

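Messenger RNA of 6 seedling samples was sequenced, 3 exposed to NAE 18:3 and 3 to DMSO. The deposited values are FPKM. Per the submitters' processing notes, the authors used TopHat, Cufflinks and Cuffdiff with genome build TAIR9, and versions and settings are not given in the sources used here. The locus columns carry codes that the descriptions of the samples explain, and 4 merged columns were not used. Genes were matched by TAIR identifiers, and 644 loci join several genes.

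Loci averaging 1 FPKM or more over all 6 libraries were fitted as log2(FPKM + 1), a pseudocount of 1. The fit was made in R 4.3.3 by limma 3.58.1, with a term for group only, a mean-variance trend and Benjamini-Hochberg adjustment over all 18194 loci. This scale understates changes of low loci. Loci were called at an adjusted p under 0.05. Sums and ratios were compared by exact two-sided permutation of the libraries with scipy 1.17.1. Alternatives were a pseudocount of 0.1, no filter or a mean of at least 5 FPKM, 4 other scalings, no trend, a replicate block, summed transcripts, joined loci left out, ratios with the pseudocount, and each library left out. Without counts no count model or counting interval was used, and the number of replicates limits the precision.

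The members and gene lists were chosen with earlier results of these data known. All members are named, with values in every library for paralog pairs and for the highest and lowest change of each complex. From each list the largest rise and fall among called loci are named. Further genes and 7 ratios were picked after their values were seen. The TAIR10.1 annotation served for names and overlaps only, and no sequences or coordinates are given because its build differs.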

Additional observations from a re-analysis of the deposited data

How the results depend on the processing

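Scaling between libraries moved most of the results that moved. Of all loci, 8018 were called higher and 7125 lower as deposited, 5857 and 9497 with upper quartile, 4831 and 10786 with total FPKM, 7588 and 7565 with median of ratios, and 7241 and 7747 with quantile scaling. The members' median log2 change was 1.07 with upper quartile, 0.88 with total FPKM, 1.35 with median of ratios and 0.63 with quantile scaling, which called 6 members lower. In the same order of scalings, the log2 ratio of summed member FPKM was 1.20, 1.01, 1.48 and 0.36, that of photosystem I 1.28, 1.09, 1.56 and 0.44, that of photosystem II 1.25, 1.06, 1.54 and 0.41, that of the carriers 0.98, 0.79, 1.26 and 0.028, and that of the ATP synthase 0.74, 0.55, 1.03 and 0.82. Quantile scaling gave negative log2 changes for PSAD1 (-0.42), PSAF (-0.060, adjusted p = 0.37), PSAG (-0.17), PSBP1 (-0.14), PSBX (-0.35) and FD2 (-0.62 and -0.60). It moved the log2 differences of ratios to -0.082 for photosystem I over its antenna, 0.27 for photosystem II over its antenna, -1.73 for PSAD1 over PSAD2, -1.17 for PSAE1 over PSAE2, 0.57 for PSAH1 over PSAH2, -1.36 for PSBO1 over PSBO2, -0.21 for PSBQ1 over PSBQ2, 0.22 for PETE1 over PETE2, 0.14 for FNR1 over FNR2, -0.11 for PETE2 over ATPD, 0.36 for FD2 over FD1, 0.86 for FD2 over FD3, 4.45 for leaf over root-type FNR, 1.23 for PSBR over PSBS and 1.52 for PSAN over PSAF. With summed transcripts photosystem II over its antenna was -0.10. Transcripts were summed by gene there, and all 31 member genes were called higher. FD2 and PSBTN each had 1 value by gene there, so their separate loci have no counterpart. With the pseudocount in the ratio, leaf over root-type FNR was 4.33. A mean of at least 5 FPKM left fewer root markers to test and 3 called lower in place of 8. The cause of the scaling shifts was not tested.

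Leaving out each library in turn kept 33 of 33 members higher, with a median of 1.41 to 1.44. Without NAE 18:3 replicate 1, 1 locus of the photosystem II antenna was called lower in place of 0, and without replicate 2 or 3, 1 of the other thylakoid loci in place of 2. Same-numbered libraries did not deviate together (correlations of -0.0133, -0.00872 and 0.0182). These values cannot show whether same-numbered samples were grown or prepared together, and the labels do not say. The replicate block kept 33 members higher and called 15012 loci against 15143 without it. Unknown depth limits what can be said of low loci.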

Other observations

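On the deposited scale, some abundant loci outside the photosynthetic membrane moved further than any of the photosystem genes. Among non-members that averaged 1000 FPKM or more, and chosen here after their values were seen, AGT (AT2G13360), a peroxisomal aminotransferase of photorespiration, averaged 2269 ± 39.7 FPKM in NAE 18:3 and 193 ± 3.72 FPKM in DMSO libraries (SD, n = 3 each), a log2 change of 3.55. GGT1 (AT1G23310), a glutamate:glyoxylate aminotransferase of the same pathway, averaged 2419.6 ± 44.3 FPKM in NAE 18:3 and 234 ± 6.03 FPKM in DMSO libraries, a log2 change of 3.36. DELTA-TIP (AT3G16240), a tonoplast aquaporin, averaged 2395 ± 111 FPKM in NAE 18:3 and 323 ± 23.7 FPKM in DMSO libraries. The Calvin cycle genes GAPA (AT3G26650) and GAPB (AT1G42970), subunits of plastid glyceraldehyde-3-phosphate dehydrogenase, rose by 2.02 and 2.28 in log2. Both rose less than the members PSBR, at 2.46, and PSAN, at 2.31.

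Fewer of these loci fell, in a class set by a mean that includes the NAE 18:3 libraries. PYK10 (AT3G09260), a beta-glucosidase of the endoplasmic reticulum bodies known from roots, averaged 1141 ± 13.5 FPKM in NAE 18:3 and 2750.4 ± 52.4 FPKM in DMSO libraries, a log2 change of -1.27. PBP1 (AT3G16420), a binding protein of PYK10, fell by 0.69 in log2. ICL (AT3G21720), isocitrate lyase of the glyoxylate cycle that serves seedling lipid reserves, averaged 867 ± 31.7 FPKM in NAE 18:3 and 1537 ± 42.5 FPKM in DMSO libraries, a log2 change of -0.83. All of these changes were called in the fit over all loci (limma, Benjamini-Hochberg adjusted p between 1.5e-11 and 1.6e-07).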
